A study of Mus musculus with 22 samples.

Results

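The 9 genes described here, Meox1, Meox2, Tcf15, Uncx, Pax1, Pax9, Pax3, Foxc1 and Foxc2, encode transcription factors of the somites and the paraxial mesoderm, and were followed through every library of the series. They were picked by symbol from the table of 37680 gene IDs, and each of the 9 matched 1 ID. RNA came from 22 pools of whole C57BL/6 mouse embryos. All embryos carried ROSA26tg/+ together with either Oct4tg/+ or Nanogtg/+, the transgenes that doxycycline switches on, and the controls carried the same alleles without doxycycline. At E7.5 the Oct4 line had 3 induced and 3 control pools and the Nanog line 3 induced and 2 control pools, each of 8 to 12 embryos, and the induced ones had been exposed through the mother from E4.5, first by injection and then by drinking water. At E9.5 the Oct4 line had 3 induced and 3 control pools and the Nanog line 3 induced and 2 control pools, each of 3 embryos, with doxycycline in the water from E6.5 on. No group combined doxycycline with embryos free of a transgene, so an effect of the drug itself cannot be told apart from that of the transgene. The labels do not say in which cells the transgenes were active.

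Paraxial mesoderm arises from the primitive streak and the tailbud as presomitic mesoderm, which is cut into somites by a segmentation clock of Notch and Wnt signals. Each somite then divides into the dermomyotome, the source of muscle and dermis, and the sclerotome, the source of vertebrae and ribs. The homeobox factors Meox1 and Meox2 and the bHLH factor Tcf15 (also called paraxis) act in the somite as a whole, Pax1, Pax9 and Uncx in the sclerotome, Pax3 in the dermomyotome, and the forkhead factors Foxc1 and Foxc2 from the presomitic mesoderm on. Several of them work in other tissues too: Pax1 and Pax9 in the pharyngeal pouches, Pax3 in the dorsal neural tube and neural crest, Uncx in the nervous system and kidney, and Foxc1 and Foxc2 in vessels, heart and kidney.

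Library totals ranged from 4.72 to 42.3 M expected counts, being 24.9 to 42.3 M in the Oct4 pools of E7.5 and lower elsewhere except in 1 Nanog induced pool of E7.5 at 26.0 M. A count of 0 allows a level of up to 3 counts, or 0.0709 to 0.636 CPM in a library. CPM is the count per M counts of the library, after TMM scaling, and ± gives the SD over pools. Pou5f1, the gene of Oct4, read 622 ± 90.3 CPM in induced and 242 ± 20.5 CPM in control pools of the Oct4 line at E7.5, and 245 ± 11.8 and 0.814 ± 0.406 CPM at E9.5; in the Nanog line at E7.5 it read 544 ± 72.1 CPM in induced and 231 ± 16.2 CPM in control pools. Nanog read 93.7 ± 30.9 CPM in induced and 19.8 ± 3.94 CPM in control pools of the Nanog line at E7.5, and 324 ± 3.37 and 2.13 ± 0.219 CPM at E9.5. At E7.5 this difference did not pass the edgeR test used below. Every induced pool (58.9 CPM or more) still lay above both controls (22.6 CPM or less). Each of the 6 marker lists of other tissues used below summed to at least 27.2 CPM in every library. The libraries were read on 2 kinds of sequencer that the labels do not assign, which cannot be told apart from the groups. Gene models under 80 nucleotides summed to 0.575 to 1.13 CPM in the Nanog induced pools of E7.5, against 31.3 to 36.8 CPM in their controls, and the mitochondrially encoded genes to 5.27% to 8.26% against 3.30% to 3.63% of counts. The controls differed likewise between stages, with short gene models at 0.634 to 1.70 CPM in E9.5 controls of both lines, against 29.0 to 51.9 CPM in E7.5 controls, and mitochondrial genes at 2.38% to 2.88%, against 3.30% to 5.51%.

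Promoter sequence, 250 bases before to 50 after the start, was held by RefSeq's table (GRCm38.p6) for Uncx, Pax9, Foxc1, Pax1 and Meox2. It is shown for the 3 that passed the test in at least 1 of the inductions below: Uncx at chr5:139543648-139543947, Pax9 at chr12:56695221-56695520 and Foxc1 at chr13:31806396-31806695, all on the plus strand and written 5′ to 3′. Capitals mark TAATTA, a palindromic core of homeodomain sites.
Uncx promoter: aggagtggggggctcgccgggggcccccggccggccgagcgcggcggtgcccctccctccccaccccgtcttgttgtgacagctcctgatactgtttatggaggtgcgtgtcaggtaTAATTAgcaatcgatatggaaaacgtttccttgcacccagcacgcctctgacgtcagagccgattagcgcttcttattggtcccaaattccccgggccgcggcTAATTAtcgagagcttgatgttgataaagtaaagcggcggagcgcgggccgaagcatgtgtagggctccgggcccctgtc
Pax9 promoter: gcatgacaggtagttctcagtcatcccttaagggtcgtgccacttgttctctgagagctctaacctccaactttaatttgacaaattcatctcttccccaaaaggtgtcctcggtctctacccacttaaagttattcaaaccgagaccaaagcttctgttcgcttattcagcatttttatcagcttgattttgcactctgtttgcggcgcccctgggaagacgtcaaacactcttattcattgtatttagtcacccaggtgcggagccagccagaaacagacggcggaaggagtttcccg
Foxc1 promoter: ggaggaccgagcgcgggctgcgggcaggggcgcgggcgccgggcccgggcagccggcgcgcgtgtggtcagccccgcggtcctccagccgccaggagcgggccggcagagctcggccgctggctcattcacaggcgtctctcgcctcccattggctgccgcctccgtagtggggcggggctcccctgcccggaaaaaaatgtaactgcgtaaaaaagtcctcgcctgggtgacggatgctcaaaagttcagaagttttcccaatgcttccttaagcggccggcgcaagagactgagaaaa
The Uncx window holds TAATTA at 2 places, beginning 133 and 30 bases before the start. None of the other 4 windows holds it, and none of the 5 holds ATGCAAAT or its reverse complement ATTTGCAT, the octamer that Oct4 is known to bind. TAATTA occurs in 5.29% of all 32851 promoter windows of the table and the octamer in 1.74%, on either strand. GC content was 60.7% for Uncx, 47.0% for Pax9 and 67.3% for Foxc1, against a mean of 53.8% over all windows.

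Without doxycycline, E9.5 and E7.5 differed for most of the 9 genes, which places each on its developmental course. In the Oct4 line 7 of the 9 were higher at E9.5 and 0 lower, in a comparison that called 73.5% of all genes tested, 36.5% of them as higher and 37.1% as lower. In the Nanog line 7 were higher and Foxc2 was lower, where 63.8% of genes were called, 31.8% as higher and 32.0% as lower. Every E9.5 pool lay above every E7.5 pool for 7 members of the Oct4 line (36.3% of genes, with 41.4% in the other direction) and for 7 of the Nanog line (43.8%), where 2, Tcf15 and Foxc2, lay below (39.1%). With stage differences this common, the counts of members are a description of when each gene is on. All called values below come from edgeR's quasi-likelihood test with Benjamini-Hochberg adjustment over all genes tested, each fold change is a log2 value ± its standard error (SE), and a gene is called at an adjusted p under 0.05.

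Meox1 and Meox2, paired homeobox factors of the early somite, began at different times. Meox1 (ENSMUSG00000001493, chr11:101738824-101755688, minus strand, NCBIM37) read 65.5, 63.5 and 72.0 CPM in Oct4 controls at E9.5, against 13.0, 8.92 and 16.7 CPM at E7.5 (log2 fold change 2.42 ± 0.22, adjusted p = 9.39e-05). In Nanog controls it read 67.3 and 56.6 CPM at E9.5, against 19.0 and 17.9 CPM at E7.5 (1.72 ± 0.11, adjusted p = 1.82e-08). Every E9.5 control lay above every E7.5 control. Meox2 (ENSMUSG00000036144, chr12:37835127-37908372, plus strand) read 11.8, 12.7 and 8.12 CPM in Oct4 controls at E9.5, against 0.0746, 0.0855 and 0.131 CPM at E7.5 (6.75 ± 0.30, adjusted p = 8.87e-09). In Nanog controls it read 10.9 and 11.8 CPM at E9.5 and had no count at E7.5, at least 57.9-fold higher at E9.5 against a floor of 3 counts over the E7.5 group. Meox2 was thus at the edge of detection at E7.5, where Meox1 already had 1296 counts over the 3 Oct4 controls.

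Tcf15 (ENSMUSG00000068079, chr2:151969297-151974833, plus strand), the bHLH factor needed for epithelial somites, was near its E9.5 level already at E7.5. It read 8.83, 6.94 and 8.48 CPM in Oct4 controls at E9.5, against 6.94, 5.33 and 6.83 CPM at E7.5 (0.38 ± 0.16, adjusted p = 0.0508). Nanog controls gave 4.5 and 4.44 CPM at E9.5, against 4.66 and 4.74 CPM at E7.5 (-0.11 ± 0.24, adjusted p = 0.716). Neither difference passed the test; the 95% interval was 0.03 to 0.74 in the Oct4 line and -0.63 to 0.41 in the Nanog line.

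The sclerotome genes parted by stage. Pax1 (ENSMUSG00000037034, chr2:147187661-147219031, plus strand) read 15.9, 17.2 and 16.2 CPM in Oct4 controls at E9.5, against 0, 0.114 and 0.0526 CPM at E7.5 (8.02 ± 0.32, adjusted p = 3.77e-09). In Nanog controls 497 expected counts at E9.5 stood against 1 count at E7.5 (adjusted p = 4.84e-09). Uncx (ENSMUSG00000029546, chr5:140019448-140079180, plus strand), which marks the posterior part of each somite, read 6.54, 6.41 and 6.42 CPM in Oct4 controls at E9.5, against 0.112, 0.057 and 0.105 CPM at E7.5 (6.12 ± 0.29, adjusted p = 1.31e-08). Its Nanog controls read 2.90 and 3.76 CPM at E9.5, against 0.301 and 0.116 CPM at E7.5 (adjusted p = 3.35e-05), the E7.5 values resting on 2.65 expected counts. Both genes were near the floor at E7.5. Pax9 (ENSMUSG00000001497, chr12:57792754-57813809, plus strand) was on at both stages, at 9.04, 8.48 and 7.15 CPM in Oct4 controls of E9.5, against 3.10, 2.22 and 2.79 CPM at E7.5 (1.66 ± 0.18, adjusted p = 8.16e-06). Nanog controls gave 9.19 and 8.38 CPM at E9.5, against 2.56 and 2.20 CPM at E7.5 (1.86 ± 0.24, adjusted p = 1.61e-05). Exons of Pax1 and Pax9 overlap an antisense gene (AI646519 and Slc25a21), and the labels do not say whether strand was kept, so their values are uncertain by the reads of those partners.

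Pax3 (ENSMUSG00000004872, chr1:78097842-78193709, minus strand), which specifies muscle progenitors of the dermomyotome, read 37.6, 39.7 and 40.5 CPM in Oct4 controls at E9.5, against 1.08, 0.656 and 0.894 CPM at E7.5 (5.55 ± 0.14, adjusted p = 2.46e-10). In Nanog controls it read 44.2 and 42.7 CPM at E9.5, against 1.05 and 1.5 CPM at E7.5 (5.01 ± 0.18, adjusted p = 4.72e-11). Foxc1 (ENSMUSG00000050295, chr13:31898515-31902504, plus strand, 1 exon) read 38.8, 40.5 and 37.8 CPM in Oct4 controls at E9.5, against 21.4, 16.6 and 18.7 CPM at E7.5 (1.10 ± 0.10, adjusted p = 1.57e-06). Nanog controls gave 39.7 and 44.1 CPM at E9.5, against 20.9 and 19.8 CPM at E7.5 (1.01 ± 0.10, adjusted p = 1.62e-06). Foxc2 (ENSMUSG00000046714, chr8:123640071-123642792, plus strand, 1 exon), its partner in somite formation, read 23.4, 18.9 and 23.0 CPM in Oct4 controls at E9.5, against 23.0, 23.1 and 18.7 CPM at E7.5 (0.05 ± 0.12, adjusted p = 0.695). In Nanog controls Foxc2 fell, to 16.4 and 15 CPM at E9.5, against 21.5 and 19.9 CPM at E7.5 (-0.43 ± 0.13, adjusted p = 0.0102), a call lost without E7.5 control 2 or E9.5 control 3.

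**Figure D1:**
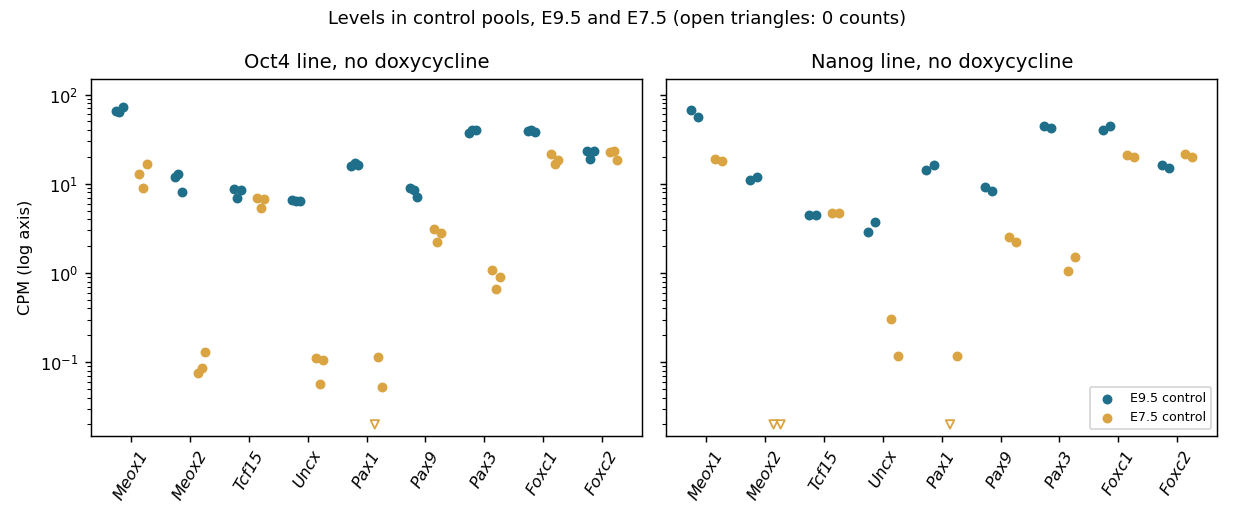
Level of each factor in CPM (log axis) in every control pool of the Oct4 line (left) and the Nanog line (right), with E9.5 pools left of E7.5 pools and open triangles for pools with 0 counts. Meox2, Pax1 and Uncx sit near the floor at E7.5, Pax3 between 0.656 and 1.5 CPM, and Tcf15 and Foxc2 close to their E9.5 levels.

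After Oct4 induction from E4.5, Meox1, Tcf15 and Pax9 were strongly lower at E7.5, Meox1 most of all. These 3 fell and 0 of the 9 rose, where 6.17% of the 16071 genes tested were called, 2.25% as higher and 3.91% as lower. In 5 of the 9 every induced pool lay below every control pool and in 0 above, separations found in 13.7% and 9.16% of genes. Of the 9, 6 passed the filter on low counts and had a median log2 fold change of -1.76, against 0.02 over all genes; Meox2, Pax1 and Uncx were too low to test. In bulk RNA of whole embryos, fewer cells of a type and less RNA per cell cannot be told apart.

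Meox1 read 0.437, 0.606 and 0.524 CPM in Oct4 induced pools at E7.5, against 13.0, 8.92 and 16.7 CPM in controls. The highest induced pool was far below the lowest control, with 46 counts over the 3 induced pools and 1296 over the controls (log2 fold change -4.60 ± 0.29, adjusted p = 0.000181). Tcf15 read 1.04, 0.606 and 1.66 CPM in induced pools, against 6.94, 5.33 and 6.83 CPM in controls (-2.53 ± 0.32, adjusted p = 0.00233). Pax9 read 0.682, 0.472 and 0.437 CPM in induced pools, against 3.10, 2.22 and 2.79 CPM in controls (-2.29 ± 0.26, adjusted p = 0.00159). The groups did not overlap for any of these 3, and each kept its call in all 6 fits that left out 1 library.

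The other members read as follows. Pax3 had 0.491, 0.269 and 0.306 CPM in induced pools, against 1.08, 0.656 and 0.894 CPM in controls (-1.23 ± 0.35, adjusted p = 0.0791), without overlap but on 33 and 86.2 counts in all. Foxc1 had 12.7, 12.1 and 14.0 CPM in induced pools, against 21.4, 16.6 and 18.7 CPM in controls (-0.52 ± 0.13, adjusted p = 0.0521), again without overlap and just short of the threshold; DESeq2 called it (adjusted p = 0.00893). Foxc2 had 16.6, 15.2 and 19.7 CPM in induced pools, against 23.0, 23.1 and 18.7 CPM in controls (-0.30 ± 0.14, adjusted p = 0.326, 95% interval -0.62 to 0.02), and its groups overlapped. Meox2, Pax1 and Uncx stayed at or below 0.236 CPM in every one of these 6 pools. Foxc1 and Foxc2 still read 12.1 CPM or more in every induced pool, where Meox1 read 0.606 CPM or less.

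Nanog induction at E7.5 also came with lower somite genes. Meox1, Tcf15, Pax9 and Foxc1 fell and 0 of the 9 rose, where 7.78% of the 14118 genes tested were called, 2.96% as higher and 4.82% as lower. In 6 of the 9 every induced pool lay below both controls and in 0 above, separations found in 20.3% and 22.6% of genes. The 5 members that passed the filter had a median of -2.28, against 0.00 over all genes.

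Meox1 read 0.642, 1.05 and 0.726 CPM in Nanog induced pools at E7.5, against 19.0 and 17.9 CPM in controls (-4.45 ± 0.26, adjusted p = 4.17e-05). Foxc1 read 7.34, 5.63 and 2.91 CPM in induced pools, against 20.9 and 19.8 CPM in controls (-1.93 ± 0.30, adjusted p = 0.0102). Tcf15 read 0.459, 1.51 and 0.726 CPM in induced pools, against 4.66 and 4.74 CPM in controls (-2.28 ± 0.45, adjusted p = 0.0180). For each of them every induced pool lay well below both controls; for Foxc1 and Tcf15 the induced pools were spread more widely than the 2 controls. Pax9 read 0.0917, 0.546 and 0.291 CPM in induced pools, against 2.56 and 2.20 CPM in controls (-2.74 ± 0.59, adjusted p = 0.0261). Meox1 kept its call in all 5 fits that left out 1 library. Without control 2 the adjusted p was 0.0955 for Foxc1, 0.125 for Tcf15 and 0.219 for Pax9, and without control 3 it was 0.0861, 0.144 and 0.175, fits in which 1 control remained and was assumed to vary like the induced pools.

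Foxc2 read 7.98, 10.2 and 2.91 CPM in Nanog induced pools, against 21.5 and 19.9 CPM in controls (-1.53 ± 0.42, adjusted p = 0.0892); it was called by DESeq2 (adjusted p = 0.00374) and without induced pool 4 (0.00564). Pax3 read 0.275, 0.630 and 0.145 CPM in induced pools, against 1.05 and 1.5 CPM in controls, and did not pass the filter. Meox2 had 10 counts in the 3 induced pools and none in the controls, Pax1 had 3 and 1, and Uncx 3 and 2.65, all at or near the floor. Library composition differed between these induced and control pools, as the values for short gene models and mitochondrial genes above show. In the Oct4 line at E7.5 short gene models summed to 30.7 to 38.8 CPM in induced and 29.0 to 51.9 CPM in control pools. A difference between the libraries themselves cannot be told apart from the Nanog induction here. The fit without short gene models and mitochondrial genes left 4 members called, but it leaves any other difference between the libraries in place. The part of these genes in the fold changes was not otherwise tested.

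**Figure D2:**
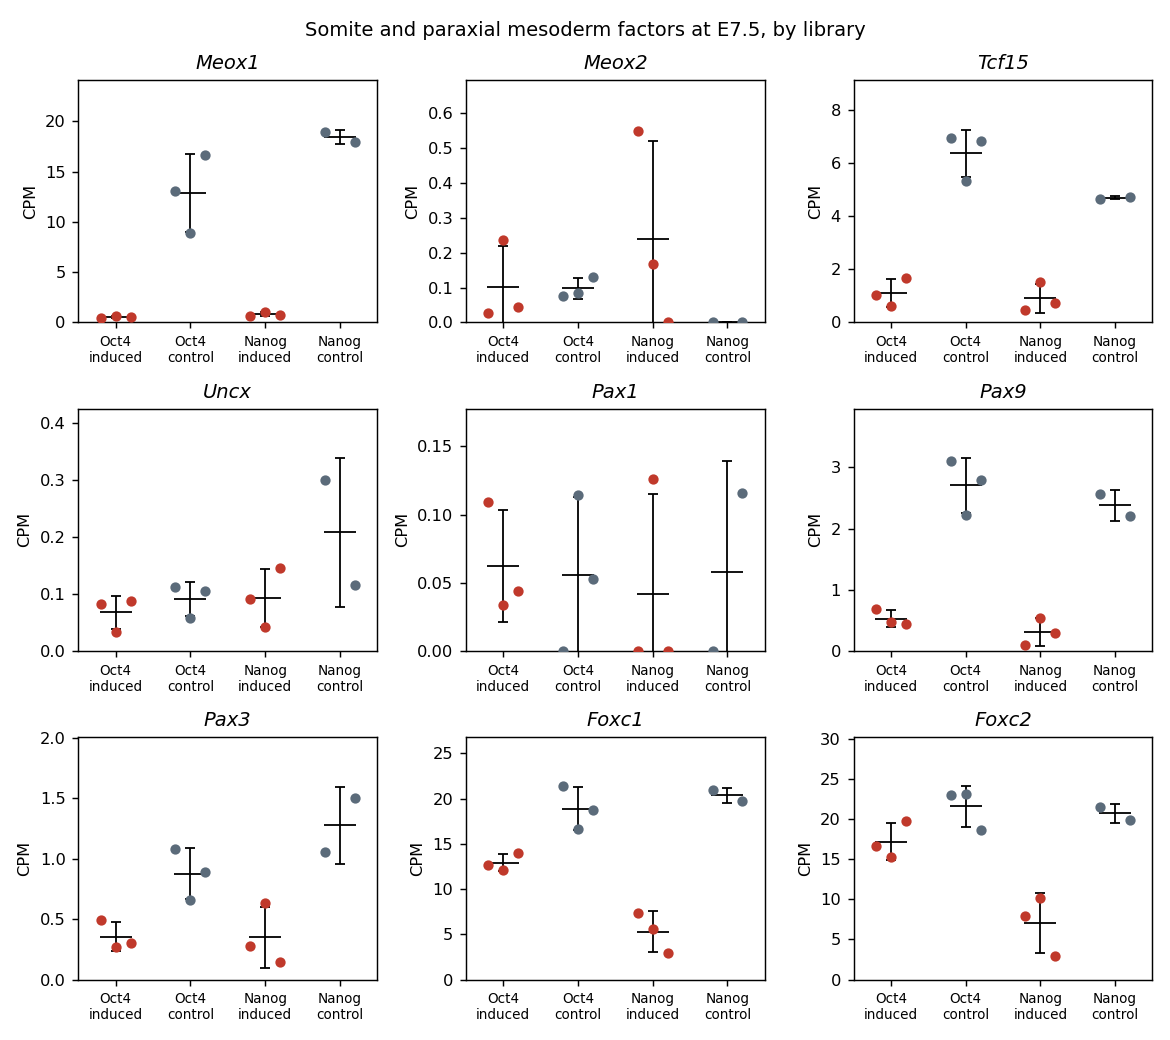
Level of each factor at E7.5 in CPM (linear axis, 1 scale per gene), by pool, in induced (red) and control (grey) pools of the Oct4 and Nanog lines; the horizontal line is the mean and the bars its SD, cut off at 0. For Meox1 the 6 induced pools lie between 0.437 and 1.05 CPM and the 5 controls between 8.92 and 19.0 CPM, while Foxc2 keeps 15.2 CPM or more in Oct4 induced pools and 2.91 to 10.2 CPM in Nanog induced pools.

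The responses to Oct4 and to Nanog at E7.5 were set against each other as an interaction. The edgeR test called 0 of the 6 members tested, where 0.204% of the 16680 genes tested were called, 0.138% with a positive and 0.0659% with a negative difference. At an unadjusted p under 0.05 the members numbered 2, Foxc1 and Foxc2, against 10.2% of all genes tested. The Foxc1 difference, Oct4 response minus Nanog response, was 1.39 ± 0.32 (adjusted p = 0.136, 95% interval 0.71 to 2.07), and Foxc1 was called by DESeq2 (adjusted p = 0.00157) and without Nanog induced pool 1 (0.0268). The Foxc2 difference was 1.19 ± 0.41 (adjusted p = 0.350). For Meox1 it was -0.16 ± 0.40 (95% interval -1.01 to 0.69), for Tcf15 -0.28 ± 0.56 (-1.49 to 0.94), for Pax9 0.44 ± 0.58 (-0.81 to 1.68) and for Pax3 0.41 ± 0.69 (-1.08 to 1.90), intervals that leave room for differences in either direction.

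At E9.5 Oct4 induction came with moderately higher Meox1 and Tcf15, both of which fell after induction at E7.5, and with no call for the other 7. Meox1 and Tcf15 rose and 0 fell among 9 tested, where 9.29% of the 13957 genes tested were called, 4.69% as higher and 4.61% as lower. In 3 members every induced pool lay above every control (11.6% of genes) and in 1, Foxc1, below (17.1%). The median of the 9 was 0.01, against 0.00 over all genes.

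Meox1 read 81.1, 95.2 and 94.5 CPM in Oct4 induced pools at E9.5, against 65.5, 63.5 and 72.0 CPM in controls (0.45 ± 0.07, adjusted p = 0.000740), and kept its call in all 6 fits without 1 library. Tcf15 read 11.7, 11.3 and 12.4 CPM in induced pools, against 8.83, 6.94 and 8.48 CPM in controls (0.59 ± 0.14, adjusted p = 0.0113). The groups of neither gene overlapped. The Tcf15 call was lost without control 2 (adjusted p = 0.0932), without induced pool 5 (0.0643) and in DESeq2 (0.0639). In 1 model over all 22 libraries neither gene was called (adjusted p = 0.144 for Meox1 and 0.362 for Tcf15). Foxc2 read 23.8, 30.3 and 28.0 CPM in induced pools, against 23.4, 18.9 and 23.0 CPM in controls (0.35 ± 0.11, adjusted p = 0.0523). Foxc1 read 31.6, 36.5 and 34.4 CPM in induced pools, against 38.8, 40.5 and 37.8 CPM in controls (-0.19 ± 0.07, adjusted p = 0.109). The 2 forkhead genes, which are close relatives, thus lay on opposite sides of their controls without passing the test.

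Pax3 had 40.9, 44.0 and 40.2 CPM in Oct4 induced pools at E9.5, against 37.6, 39.7 and 40.5 CPM in controls (0.10 ± 0.07, 95% interval -0.04 to 0.24). Pax1 had 13.1, 11.7 and 18.8 CPM in induced pools, against 15.9, 17.2 and 16.2 CPM in controls (-0.13 ± 0.14, -0.44 to 0.17). Pax9 had 7.09, 8.79 and 8.91 CPM in induced pools, against 9.04, 8.48 and 7.15 CPM in controls (0.01 ± 0.16, -0.32 to 0.34). All 3 overlapped their controls. Uncx had 4.87, 6.25 and 8.14 CPM in induced pools, against 6.54, 6.41 and 6.42 CPM in controls (0.01 ± 0.19, -0.39 to 0.40), the induced pools straddling a tight set of controls. Meox2 had 8.15, 8.4 and 10.9 CPM in induced pools, against 11.8, 12.7 and 8.12 CPM in controls (-0.25 ± 0.17, -0.61 to 0.11).

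Nanog induction at E9.5 moved members both ways. Uncx, Foxc2 and Tcf15 rose and Foxc1 and Pax3 fell among 9 tested, where 28.4% of the 13305 genes tested were called, 15.4% as higher and 13.0% as lower. In 4 members every induced pool lay above both controls (24.8% of genes) and in 2 below (30.9%). The median of the 9 was 0.14, against 0.00 over all genes.

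Uncx read 9.10, 8.33 and 4.53 CPM in Nanog induced pools at E9.5, against 2.90 and 3.76 CPM in controls (1.16 ± 0.27, adjusted p = 0.00497). Foxc2 read 19.6, 25.2 and 24.8 CPM in induced pools, against 16.4 and 15 CPM in controls (0.60 ± 0.13, adjusted p = 0.00320). Tcf15 read 6.20, 9.31 and 6.35 CPM in induced pools, against 4.5 and 4.44 CPM in controls (0.75 ± 0.22, adjusted p = 0.0188). All 3 lay above both controls, Uncx by a narrow margin in induced pool 3. In Oct4 controls of the same stage the means were 6.46 CPM for Uncx, 21.8 CPM for Foxc2 and 8.08 CPM for Tcf15. Those lay closer to the Nanog induced pools (means 7.32, 23.2 and 7.28 CPM) than to the Nanog controls (3.33, 15.7 and 4.47 CPM). Foxc1 read 32.3, 34.6 and 32.3 CPM in induced pools, against 39.7 and 44.1 CPM in controls (-0.31 ± 0.09, adjusted p = 0.0178). Pax3 read 29.8, 36.1 and 38.4 CPM in induced pools, against 44.2 and 42.7 CPM in controls (-0.29 ± 0.10, adjusted p = 0.0347). Foxc1 and Pax3 lay below both controls. Oct4 controls, at means of 39.1 and 39.3 CPM for these 2 genes, stood between the Nanog controls (41.9 and 43.4 CPM) and the Nanog induced pools (33.1 and 34.8 CPM). What set the controls of the 2 lines apart was not tested. Foxc2 kept its call in all 5 fits without 1 library. Uncx lost it without control 2 (adjusted p = 0.0559), Foxc1 without control 3 or induced pool 3 (at most 0.201), Tcf15 without control 2, control 3 or induced pool 2 (at most 0.136), and Pax3 without control 2, control 3 or induced pool 1 (at most 0.183). DESeq2 called Uncx and Foxc2 of these 5, and 1 model over all 22 libraries called Uncx (adjusted p = 0.0167).

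A further 4 members were not called in the Nanog line at E9.5. Meox1 had 60.4, 68.6 and 62.5 CPM in induced pools, against 67.3 and 56.6 CPM in controls (0.08 ± 0.09, 95% interval -0.11 to 0.26). Meox2 had 11.2, 9.80 and 14.1 CPM in induced pools, against 10.9 and 11.8 CPM in controls (0.07 ± 0.16, -0.27 to 0.42). Pax1 had 17, 18.9 and 15.8 CPM in induced pools, against 14.4 and 16.2 CPM in controls (0.20 ± 0.13, -0.08 to 0.49). Pax9 had 9.29, 9.31 and 9.79 CPM in induced pools, against 9.19 and 8.38 CPM in controls (0.14 ± 0.16, -0.20 to 0.48); it did not overlap its controls, by a margin smaller than the spread of the controls. The induced libraries of this comparison held 4.77 to 5.63 M counts and the controls 15.7 to 15.8 M.

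**Figure D3:**
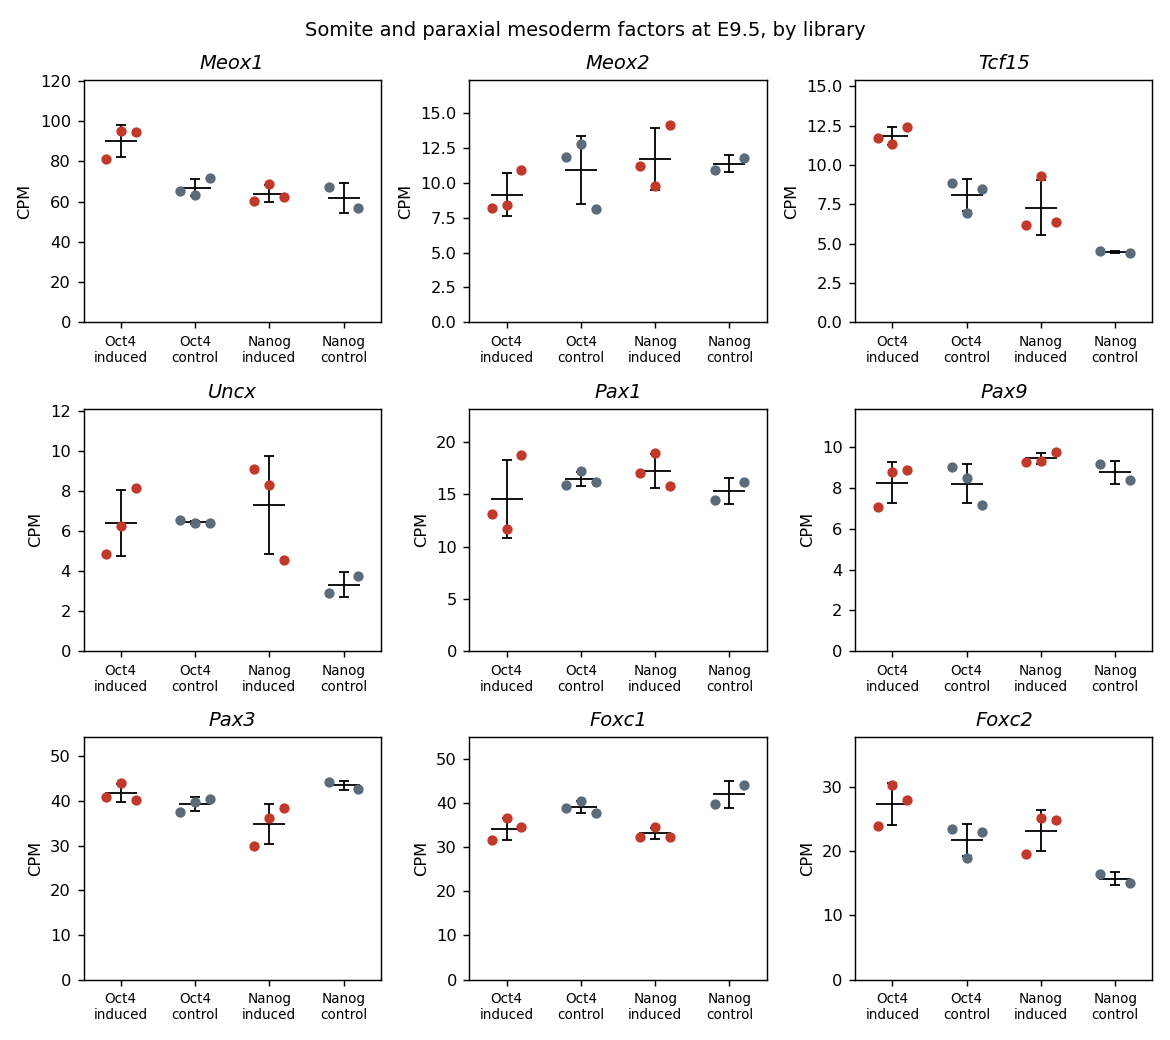
Level of each factor at E9.5 in CPM (linear axis, 1 scale per gene), by pool, in induced (red) and control (grey) pools of both lines, with the mean and SD. Meox1 in Oct4 induced pools (81.1 to 95.2 CPM) lies above the other 3 groups (56.6 to 72.0 CPM), and Uncx in the Nanog line reads 4.53 to 9.10 CPM in induced pools and 2.90 and 3.76 CPM in controls.

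Set against each other at E9.5, the responses to Oct4 and to Nanog differed for Pax3 (Oct4 response minus Nanog response 0.39 ± 0.12, adjusted p = 0.0308) and for Uncx (-1.15 ± 0.34, adjusted p = 0.0280), 2 of 9 members where 13.5% of the 14604 genes tested were called, 5.57% with a positive and 7.92% with a negative difference. Each of these calls held in 4 of the 11 fits that left out 1 library, with an adjusted p of up to 0.125 for Pax3 and 0.151 for Uncx. The Meox1 difference was 0.38 ± 0.12 (adjusted p = 0.0510). The remaining 6 ran from -0.34 ± 0.20 for Pax1 to 0.13 ± 0.12 for Foxc1 and were not called.

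Within each line the responses at the 2 stages differed for several members. The Oct4 response at E9.5 minus that at E7.5 was 5.05 ± 0.31 for Meox1 (adjusted p = 1.87e-06), 3.11 ± 0.35 for Tcf15 (5.74e-05), 2.29 ± 0.30 for Pax9 (0.000193) and 1.30 ± 0.27 for Pax3 (0.00790), 4 of 9 members, against 4.84% of the 16359 genes tested called in this direction, 1.85% in the other and 6.69% in either. All 4 kept their call in the 12 fits without 1 library. The Nanog response at E9.5 minus that at E7.5 was 4.47 ± 0.22 for Meox1 (adjusted p = 6.84e-08), 2.97 ± 0.50 for Tcf15 (0.00196), 2.81 ± 0.49 for Pax9 (0.00249), 2.08 ± 0.46 for Foxc2 (0.0180) and 1.59 ± 0.29 for Foxc1 (0.00480), 5 of 9 members, against 8.02% of the 14897 genes tested in this direction, 4.79% in the other and 12.8% in either. Of these, Foxc2 held in 5 of 10 fits without 1 library and the others in all 10. The stages also differ in when doxycycline began (E4.5 and E6.5) and in how it was given, which cannot be told apart from embryonic age. Mitochondrially encoded genes and short gene models differed between stages. Without them the same 4 members were called in the Oct4 line and the same 5 in the Nanog line. Each member called between the controls of the 2 stages was called again. These fits leave any other difference between the libraries in place.

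**Figure D4:**
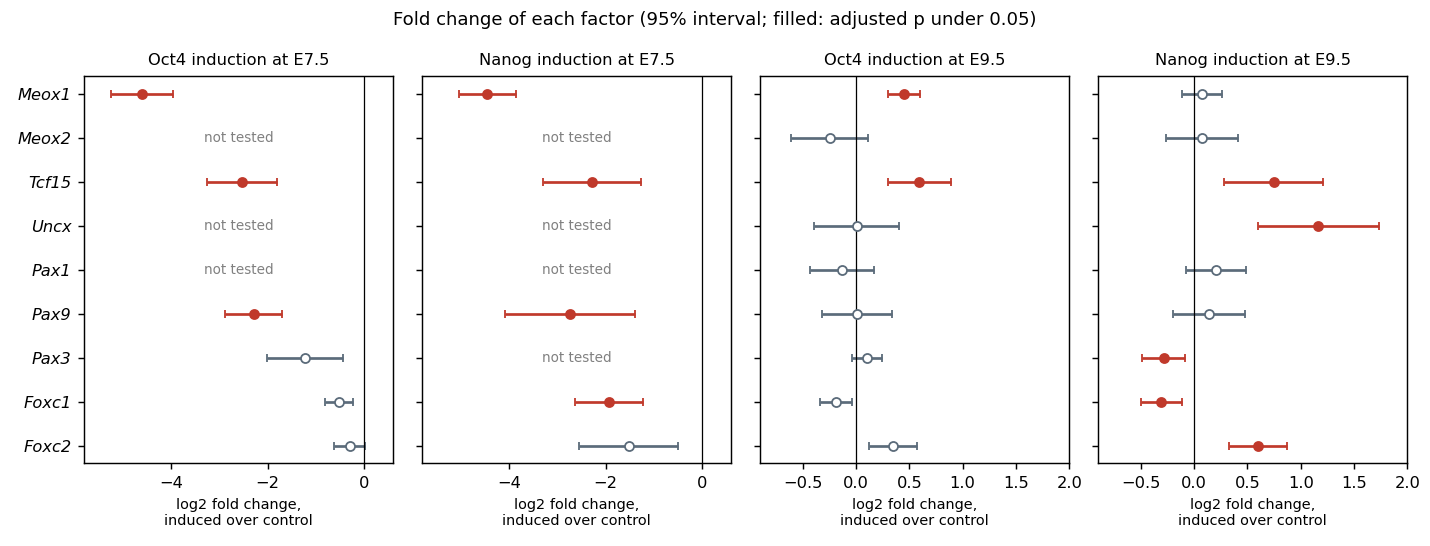
Fold change of each factor, induced over control, on the log2 scale with its 95% interval, in the 4 inductions (left to right Oct4 and Nanog at E7.5, Oct4 and Nanog at E9.5; the E7.5 and E9.5 panels have different scales). Filled red points passed the test; at E7.5 all points lie below 0, down to -4.60 for Meox1 in the Oct4 line, and at E9.5 they lie between -0.31 and 1.16.

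Across the 8 groups Meox1 was highest in Oct4 induced pools of E9.5 (90.3 ± 7.95 CPM), apart from the other 3 E9.5 groups, which overlapped in order. Nanog and then Oct4 controls of E7.5 followed, and Nanog and Oct4 induced pools of E7.5 came last. Tcf15 had the same group on top (11.8 ± 0.562 CPM), but its E7.5 controls (6.37 ± 0.901 CPM in Oct4 and 4.70 ± 0.0548 CPM in Nanog pools) stood above the Nanog controls of E9.5 (4.47 ± 0.0455 CPM). For Meox2, Pax1, Pax3, Pax9 and Uncx all 4 groups of E9.5 stood above all 4 of E7.5, with most neighbours within a stage overlapping; Foxc1 showed the same order of stages. Foxc2 did not: it was highest in Oct4 induced pools of E9.5 (27.4 ± 3.26 CPM) and lowest in Nanog induced pools of E7.5 (7.02 ± 3.73 CPM), and the 5 highest groups, both E7.5 control groups among them, each overlapped the next.

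Levels of related genes were compared per kilobase of exon, as the share of each pair's sum. Meox1 made up 99.5% to 99.7% of the Meox pair in Oct4 controls of E7.5 and 91.2% to 94.8% in those of E9.5. In Oct4 induced pools its share was 84.2% to 97.1% at E7.5, where both genes were low, and 94.7% to 95.9% at E9.5. Meox1 was thus the major form in every library. Pax9 exceeded Pax1 at E7.5, with 94.5% to 100% of the pair in Oct4 controls, and was the minor form at E9.5, with 28.1% to 33.6%. In Nanog controls the share of Pax9 was 94.4% to 100% at E7.5 and 31.5% to 36.1% at E9.5. The E7.5 shares rest on few Pax1 counts, 6.01 in all over the Oct4 controls and 1 over the Nanog controls. The exchange was seen in induced pools too. At E7.5 the Pax9 share was 84.7% to 92.6% in Oct4 induced pools, below their controls, on 6.21 counts of Pax1. It was 79.4% to 100% in Nanog induced pools. At E9.5 the share was 29.6% to 40.0% in Oct4 and 30.4% to 35.5% in Nanog induced pools. The antisense genes named above leave these shares uncertain as well. Foxc1 held 45.1% to 47.4% of the Foxc pair in Oct4 induced pools of E9.5, against 52.8% to 59.4% in controls, and 47.0% to 53.0% in Nanog induced pools, against 62.3% to 66.8% in controls. In both lines the induced pools lay below the controls, so that Foxc2 was the more abundant per length in Oct4 induced pools and Foxc1 in controls. At E7.5 the Foxc1 share was 32.6% to 35.2% in Oct4 induced pools, against 32.9% to 40.6% in controls, and 27.4% to 40.6% in Nanog induced pools, against 39.9% to 40.4% in controls.

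**Figure D5:**
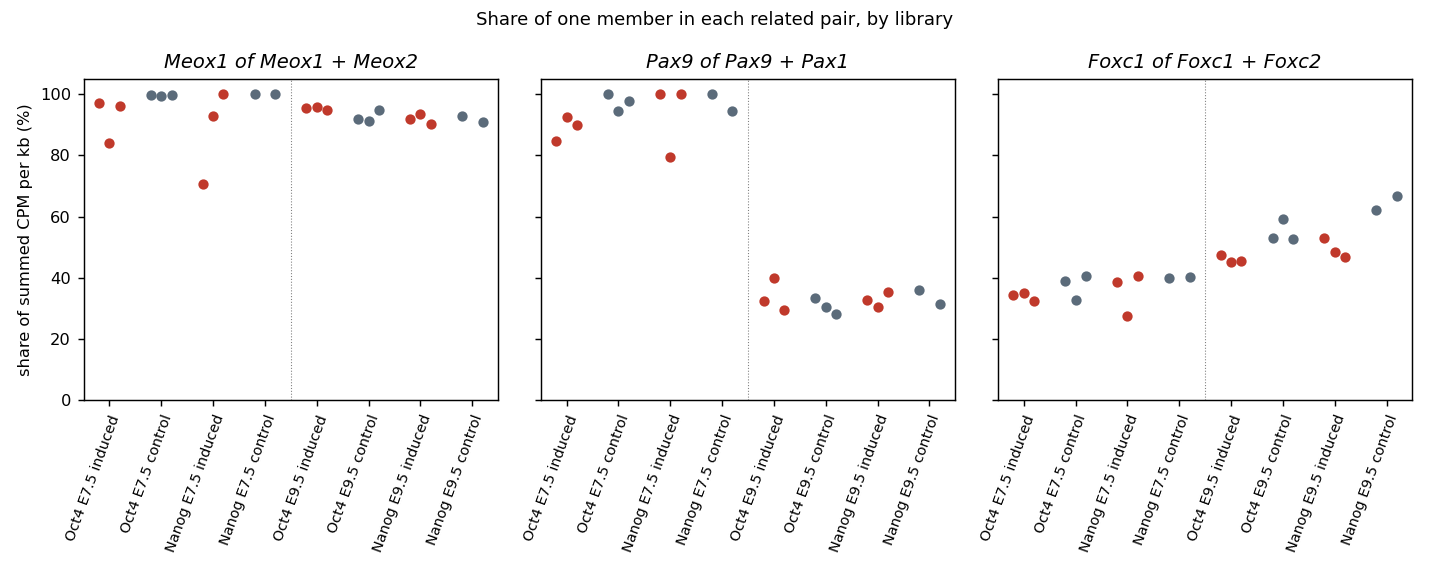
Share of Meox1, Pax9 and Foxc1 in the summed level per kilobase of Meox1 and Meox2, Pax9 and Pax1, and Foxc1 and Foxc2 (percent, axis from 0), for each pool of the 8 groups, induced in red and control in grey, with E7.5 left of the dotted line. Pax9 holds 79.4% or more of its pair at E7.5 and 40.0% or less at E9.5. In Nanog induced pools of E7.5 its share rests on 16.2 counts of Pax9 and 3 of Pax1 in all. The Foxc1 share at E9.5 is lower in induced pools than in controls of each line.

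Genes that act before and beside the 9 were counted in 3 lists: 12 of the presomitic mesoderm and segmentation, 10 of dermomyotome and myotome and 8 of sclerotome and tendon progenitors. In Oct4 induction at E7.5 the presomitic list moved both ways, with 3 of 12 higher and 4 lower and a median of -0.35. Among all genes tested in this induction 2.25% were called as higher and 3.91% as lower. Aldh1a2, which makes retinoic acid, fell (7.17 CPM in induced and 131 CPM in control pools, -4.16 ± 0.24, adjusted p = 0.000181), as did Msgn1, a master factor of presomitic mesoderm (2.15 and 20.3 CPM, -3.23 ± 0.31, adjusted p = 0.000762). The Notch ligand gene Dll3 rose (51.1 CPM in induced and 24.9 CPM in control pools, 1.06 ± 0.09, adjusted p = 0.000416), as did Mesp2, which sets the boundary of the next somite (6.53 and 1.45 CPM, 2.20 ± 0.24, adjusted p = 0.00117). Of 5 dermomyotome genes tested 1 fell, Eya2, a transcriptional cofactor in muscle progenitors (-1.14 ± 0.20, adjusted p = 0.0113), and 0 rose (median -0.37). Of 7 sclerotome genes 3 fell and 0 rose (median -0.27): the signal Bmp5 (-1.41 ± 0.17, adjusted p = 0.00209), the growth factor receptor gene Pdgfra (-0.55 ± 0.08, adjusted p = 0.00558) and Sox9, the cartilage factor (-0.74 ± 0.19, adjusted p = 0.0494), a call that held in 1 of 6 fits without 1 library. Eya2 lost its call without control 1 or control 3.

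In Nanog induction at E7.5 the presomitic list had 1 of 10 higher and 2 lower (median -1.44). Among all genes tested in this induction 2.96% were called as higher and 4.82% as lower. Tbx6, the T-box factor that keeps presomitic cells from a neural fate, fell (7.85 CPM in induced and 27.1 CPM in control pools, -1.77 ± 0.22, adjusted p = 0.00246) and kept its call in all 5 fits without 1 library. Aldh1a2 fell (16.5 and 137 CPM, -3.10 ± 0.44, adjusted p = 0.0383) and Mesp2 rose (5.89 and 2.50 CPM, 1.24 ± 0.32, adjusted p = 0.0464), calls that held in 2 and 1 of the 5 fits. Of 5 dermomyotome genes Eya1 and Eya2 fell (-1.91 ± 0.30 and -1.85 ± 0.32, adjusted p = 0.00746 and 0.0112) and 0 rose (median -0.60), and of 5 sclerotome genes Pdgfra, the bHLH gene Twist1 and Bmp5 fell (-0.80 ± 0.12, -1.36 ± 0.21 and -2.06 ± 0.44, adjusted p = 0.00538, 0.00714 and 0.0452) and 0 rose (median -0.99). Each of these 5 lost its call without control 2, and all but Eya1 without control 3 as well. Bmp5 also lost its call without induced pool 1 or induced pool 3. The muscle genes Myf5, Myf6 and Myog were at or under 3 counts in each of the 4 groups of E7.5.

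At E9.5 Oct4 induction came with higher presomitic genes, 7 of 9 tested and 0 lower (median 0.60, against 0.00 over all genes and 4.69% called as higher). Msgn1 read 6.75 CPM in induced and 0.987 CPM in control pools (2.83 ± 0.29, adjusted p = 3.54e-06), Tbx6 10.6 and 2.86 CPM (1.93 ± 0.22, adjusted p = 1.74e-05), Epha4, a receptor of somite boundaries, 88.1 and 62.3 CPM (0.52 ± 0.05, adjusted p = 2.25e-06), and Aldh1a2 67.5 and 48.1 CPM (0.51 ± 0.07, adjusted p = 5.81e-05). These 4 kept their call in all 6 fits without 1 library. Dll3, Hes7 and Nkx1-2 were the other 3 called, and each lost its call in 3 or more of the 6. The summed presomitic level was 299 to 313 CPM in Oct4 induced pools, against 204 to 226 CPM in controls. Of 8 dermomyotome genes Pax7 fell (-0.51 ± 0.12, adjusted p = 0.00914, lost without control 2). Of 7 sclerotome genes Pdgfra rose (0.17 ± 0.05, adjusted p = 0.0304, lost in 4 of 6 fits). Each list thus gave 1 call, where 9.29% of all genes tested were called, 4.69% as higher and 4.61% as lower. In Nanog induction at E9.5, where 28.4% of all genes tested were called, 2 of 8 presomitic genes were called, a share no higher than that, Tbx6 higher (0.82 ± 0.29, adjusted p = 0.0422) and the tailbud gene Nkx1-2 lower (-0.78 ± 0.27, adjusted p = 0.0440), each a call that held in 1 of 5 fits without 1 library. The edgeR test called 0 of 7 dermomyotome and 0 of 6 sclerotome genes there, as did DESeq2; at an unadjusted p under 0.05 these were 1, Eya1, and 0.

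Markers of other cells of the embryo moved in the same pools. Of all genes tested at E7.5, 2.25% were called as higher and 3.91% as lower in Oct4 induction, and 2.96% and 4.82% in Nanog induction. At E9.5 the shares were 4.69% and 4.61% in Oct4 and 15.4% and 13.0% in Nanog induction. In Oct4 induction at E7.5, 5 of 6 epiblast genes (Pou5f1 and Nanog among them) rose, with a summed level of 725 to 936 CPM in induced pools and 352 to 423 CPM in controls. The sum includes Pou5f1, the induced gene itself, at a mean of 622 CPM in induced and 242 CPM in control pools. In the fits without 1 library Nanog kept its call in 3 of 6 and Otx2 in 2 of 6. Of 6 endothelial genes 4 fell (85.3 to 110 CPM in induced and 141 to 158 CPM in control pools), as did 4 of 6 lateral and intermediate mesoderm genes (198 to 230 and 300 to 314 CPM). In Nanog induction at E7.5, 3 of 6 epiblast genes were called as higher (819 to 1054 CPM in induced and 357 to 389 CPM in control pools), Nanog not among them. This sum includes Nanog, the induced gene itself, at a mean of 93.7 CPM in induced and 19.8 CPM in control pools. It also includes Pou5f1, at 544 and 231 CPM. Of 6 endothelial genes 1 fell (181 to 276 and 161 to 197 CPM), as did 2 of 6 lateral and intermediate mesoderm genes (181 to 303 and 268 to 278 CPM). Their part in the lower somite genes was not tested. For the members that other tissues share, Pax9 stood beside genes listed for pharyngeal endoderm that summed to 40.1 to 54.1 CPM in Oct4 induced and 41.7 to 49.0 CPM in control pools at E7.5. Of 3 tested 1 fell, Shh. Most of these sums came from Foxa2 (means 35.3 CPM in induced and 26.9 CPM in control pools) and Foxa1 (10.8 and 11.6 CPM). Foxe1, Nkx2-1 and Gcm2 were too low to test, at 0.179 CPM or less in either group, so the sums do not describe them. In the Nanog line at E7.5, where Pax9 also fell, the listed markers summed to 37.2 to 42.1 CPM in induced and 34.6 to 48.0 CPM in control pools. Of 3 tested 2 fell, Foxa1 (-0.97 ± 0.24, adjusted p = 0.0447) and Shh (-4.02 ± 0.60, adjusted p = 0.00749). Over the fits without 1 library the fold change ran from -1.23 to -0.65 for Foxa1 and from -5.25 to -3.68 for Shh. Fits without a Nanog control left 1 control, so for the markers here only their fold changes are given. Among the other fits Foxa1 lost its call without induced pool 3 or induced pool 4. Foxe1, Gcm2 and Nkx2-1 were at or under 3 counts in both groups. Pax3 in the Nanog line at E9.5 stood beside neural tube markers of 120 to 134 CPM in induced and 131 to 143 CPM in control pools (1 of 6 rose, 1 fell) and neural crest markers of 174 to 196 and 160 to 171 CPM (3 of 6 rose). Among the fits with both controls Foxd3, 1 of these 3, lost its call without induced pool 3. Over all fits without 1 library the fold change ran from 0.80 to 1.04 for Foxd3. It ran from 0.35 to 0.43 for Erbb3 and from 0.78 to 1.25 for Sox10, the other called genes. In Oct4 induction at E9.5, 3 of 6 neural tube genes fell and 1 rose. Of 5 genes tested from the pharyngeal endoderm list 3 fell, Foxa2, Nkx2-1 and Shh, while Foxa1 and Foxe1 were not called. Foxa2 lost its call without control 2 or induced pool 3. Lateral and intermediate mesoderm genes rose in the same Oct4 pools, 3 of 7 (Foxf1, Hand1 and Hand2) with 0 lower, with a summed level of 116 to 122 CPM in induced and 86.4 to 92.6 CPM in control pools. Hand1 kept its call in all 6 fits without 1 library, Foxf1 in 3 and Hand2 in 4. In Nanog induction at E9.5, 2 of these 7 rose (Foxf1 and Hand1) and 0 fell, with 80.4 to 94.1 CPM in induced and 51.2 to 69.4 CPM in control pools. Hand1 lost its call there without induced pool 1, induced pool 2 or induced pool 3. The part of these tissues was not tested.

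The genes whose levels ran most like each member over the 22 libraries were found by Pearson's r of log2(CPM + 0.5) among 11289 genes with at least 5 CPM in 1 group. The libraries fall into 2 stages, so that r mostly reflects stage, and it is given as a description. Nearest to Meox1 were Arg1 (r = 0.991), Rarb (0.989) and Tbx1 (0.989). Nearest to Tcf15 were Hoxb6 (0.973), Hsd11b2 (0.967) and Rgma (0.965). Nearest to Foxc1 were Hapln1 (0.979), Pofut1 (0.978) and Pappa (0.969), and nearest to Foxc2 were Phlda1 (0.950), Irx5 (0.944) and Nkd1 (0.940). The nearest genes of the other 5 members were Foxp2, Lhx9 and Nr2f1 for Meox2 (0.991 to 0.992), Nr2f1, Tcfap2b and Col11a1 for Pax1 (0.995 to 0.997), Foxd1, Pax6 and Hoxc5 for Pax3 (0.994 to 0.997), Wnt1, Foxd2 and Dlx2 for Uncx (0.988 to 0.990), and Limch1, Rcsd1 and Zfp503 for Pax9 (0.991 to 0.993). No member was among the 3 nearest genes of another.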

How the data were processed

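The 22 libraries, each a pool of whole mouse embryos, fell into 8 groups, taken from the labels as transgene line, stage and doxycycline. The authors deposited RSEM expected counts per gene, unnormalized; the tools in the submitters' processing notes are cutadapt, RSEM 1.17, limma and Picard, and the build is NCBIM37. RSEM divides reads that match several genes, so that 12.8% to 21.4% of values in a library are not whole. Of 37680 gene IDs, 37309 matched GENCODE mouse release 1 (Ensembl 65), the source of symbols, coordinates and exonic lengths. Counts were rounded and tested with edgeR 4.0.16 (quasi-likelihood F test, TMM scaling, filterByExpr, robust dispersions, R 4.3.3), two-sided, on the groups of each comparison, with Benjamini-Hochberg adjustment over all genes tested; an adjusted p from DESeq2 is named as such. Differences between responses were interaction contrasts over 4 groups. Levels are CPM with TMM factors over all 22 libraries. The scripts were tested on simulated data. Chi-square per degree of freedom between libraries of a group was 1.60 to 67.1 over 20 pairs, so none was counted as a copy. The replicates are separate pools of embryos; the labels do not tie pools to litters, and replicate numbers were not used to pair them. Floors of 3 counts and counting limits reflect counting error alone, because the reads carry no molecular identifiers and are not independent molecules. The 9 members and the lists were chosen with earlier results of these data known. Named genes are all 9 members, up to 4 genes with the lowest p per paraxial list and induction, Pou5f1 and Nanog, and the 3 nearest genes of each member. Genes outside this rule (Dll3, Hes7 and Nkx1-2 at E9.5 among them) were named after their values were seen. In the dermomyotome list 1 gene is not reported here and was left out of its counts and medians. Alternatives were RLE size factors, DESeq2 1.42.0, no filter, 1 model over all libraries, a replicate block, leaving out each library and, added after seeing the data, leaving out mitochondrially encoded genes and short gene models in 6 comparisons.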

Additional observations from a re-analysis of the deposited data

Results flagged for a closer look

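A total of 11 differences between 2 responses passed the test of the difference itself (edgeR, adjusted over all genes tested). At E9.5 the Oct4 response minus the Nanog response was 0.39 for Pax3 and -1.15 for Uncx. Uncx rose 1.16 in the Nanog line, from a mean of 3.33 CPM in controls to 7.32 CPM. In the Oct4 line its fold change read 0.01, with controls at 6.46 CPM. In the Oct4 line the response at E9.5 minus that at E7.5 was 5.05 for Meox1, 3.11 for Tcf15, 2.29 for Pax9 and 1.30 for Pax3. In the Nanog line it was 4.47 for Meox1, 2.97 for Tcf15, 2.81 for Pax9, 1.59 for Foxc1 and 2.08 for Foxc2. The Pax3 and Uncx differences between lines lost their call in 7 of 11 fits that left out 1 library, and the Foxc2 difference between stages in 5 of 10.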

How the results depend on the processing

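RLE size factors gave the same number of members called as TMM in all 10 comparisons and moved the median of all genes by less than 0.01 on the log2 scale. Members called in Oct4 induction at E7.5 numbered 3, and 5 with 1 model over all 22 libraries; in Nanog induction at E7.5 they numbered 4, and 1 to 5 when 1 library was left out. In Oct4 induction at E9.5 they numbered 2, against 1 with DESeq2, 0 with 1 model over all libraries and 1 to 3 without 1 library. In Nanog induction at E9.5 they numbered 5, against 2 with DESeq2, 1 with the model over all libraries and 2 to 4 without 1 library. Oct4 against Nanog responses gave 0 at E7.5, against 1 with DESeq2, 1 with the model over all libraries and 0 to 1 without 1 library, and 2 at E9.5, against 1, 0 and 0 to 3. The cause of these changes was not tested, other than that leaving out a library leaves fewer samples.

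The labels do not say whether replicate numbers pair the samples. In Oct4 induction at E7.5 same-numbered pools correlated at 0.0384 to 0.214, and all 3 pairs correlated best with their own number. Pools with different numbers correlated there at -0.221 to 0.0007. Same-numbered pools correlated at -0.0796 to 0.0121 in Nanog induction at E9.5. With 2 controls, the 2 correlations of each induced pool are equal and opposite there, so they cannot show pairing. With a replicate block 4 members were called in Oct4 induction at E7.5 (Foxc1 added, adjusted p = 0.0307), 3 in Nanog induction at E9.5 (without Foxc1, 0.0640, and Pax3, 0.243), 8 in the Oct4 controls and 8 in the Nanog controls across stages. No block was fitted where groups shared fewer than 2 numbers.

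Of the fold changes of single members under all alternatives, 905 kept direction and side of the threshold, 28 passed it, 56 no longer did and 24 changed sign, all 24 for values that were not called. Without the filter, Pax9 read -0.0018 and Uncx -0.0009 in Oct4 induction at E9.5, and Foxc2 -0.0158 in the Oct4 controls across stages. Leaving out 1 library in turn gave -0.0716 to 0.132 for Pax9 and -0.235 to 0.215 for Uncx in Oct4 induction at E9.5, -0.041 to 0.201 for Meox1 and -0.0808 to 0.189 for Meox2 in Nanog induction at E9.5, and -0.0489 to 0.152 for Foxc2 across stages in the Oct4 controls. In Oct4 against Nanog responses it gave -0.36 to 0.14 for Meox1 and -0.67 to 0.49 for Tcf15 at E7.5, and -0.21 to 0.0006 for Pax9 and -0.273 to 0.0816 for Tcf15 at E9.5. Between stages it gave -1.15 to 0.41 for Pax1 and -0.82 to 1.14 for Meox2 in the Oct4 response, and -2.64 to 2.74 for Pax1 in the Nanog response.

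Counts of all genes called moved more. Without 1 library they ran from 438 to 1101 of 991 in Oct4 induction at E7.5, 161 to 1383 of 1099 in Nanog at E7.5, 625 to 1290 of 1297 in Oct4 at E9.5 and 1482 to 3487 of 3772 in Nanog at E9.5; DESeq2 gave 1351, 1481, 715 and 2414, and 1 model over all libraries 1638, 2737, 312 and 1958. Few counts stood behind Meox2, Pax1 and Uncx at E7.5, in the deepest libraries too, and behind Pax3 in the Nanog line at E7.5; without the filter none of these was called in an induction (adjusted p of 0.164 or more).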
